A study of Mus musculus with 4 samples.

Results

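Macrophages and monocytes that enter injured tissue are often sorted by which enzymes and secreted proteins they make, and 8 genes that are commonly read in this way are described here: Arg1, Chil3, Retnla, Nos2, Acod1, Ptgs2, Fn1 and Thbs1. They were chosen by symbol out of the 31053 genes of the deposited count tables. RNA was counted in single leukocytes sorted for high CD45, a surface protein of blood-derived immune cells, from the ischemic hemisphere of C57/BL6 mice. Every mouse had undergone tMCAO, a stroke model in which the middle cerebral artery is blocked for a time and then reopened, and no uninjured or sham group is analysed here. There were 2 libraries from day 14 after the occlusion and 2 libraries from day 5. The labels do not say how many mice went into a library, so the p-values measure the spread between libraries, which may be technical in part. Paired values are given in the order library 1, then library 2 of the day.

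Arginase 1 (Arg1) splits arginine into ornithine and urea, and nitric oxide synthase 2 (Nos2) uses the same amino acid to make nitric oxide, so the pair compete for one substrate. Arg1, Chil3 (a chitinase-like secreted protein without enzyme activity) and Retnla (a small secreted resistin-like protein) are the classical genes of mouse macrophages treated with interleukin 4 or 13, here called arginase-type. Nos2, Acod1 (which makes itaconate from the tricarboxylic acid cycle intermediate cis-aconitate) and Ptgs2 (cyclooxygenase 2, which makes the precursor of prostaglandins) are induced by microbial products and inflammatory cytokines, here called inflammatory-type. Fn1 (fibronectin) and Thbs1 (thrombospondin 1) encode secreted matrix proteins and are called matrix-type. Single cells in tissue need not keep to either of the polarised states that are made in culture.

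In the build GRCm38 with the GENCODE vM21 annotation, Arg1 (ENSMUSG00000019987) lies at chr10:24915221-24927484 on the minus strand and Chil3 (ENSMUSG00000040809) at chr3:106147554-106167564 on the minus strand. Retnla (ENSMUSG00000061100) lies at chr16:48842551-48844461 and Nos2 (ENSMUSG00000020826) at chr11:78920787-78960254, both on the plus strand. Acod1 (ENSMUSG00000022126) lies at chr14:103046977-103056573 and Ptgs2 (ENSMUSG00000032487) at chr1:150100031-150108227, both on the plus strand. Fn1 (ENSMUSG00000026193) lies at chr1:71585520-71653200 on the minus strand and Thbs1 (ENSMUSG00000040152) at chr2:118111876-118127133 on the plus strand. The libraries count the 3′ ends of transcripts, and for Chil3 10.6% of the 50-base windows at its 3′ ends also occur in Chil4 or Gm6522, so that a part of its UMIs could have been assigned otherwise. No such window was shared for the other 7 genes. Apol7d overlaps Fn1 and Gm29233 overlaps Thbs1 on the opposite strand.

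Promoter windows of 250 bases before to 50 bases after the RefSeq start site were at hand for 4 of the 8 genes (Chil3, Retnla, Acod1 and Ptgs2) in the build GRCm38.p6. Those of the inflammatory-type genes Acod1 and Ptgs2, which were both higher on day 14, and of Chil3, which was lower, are printed on the strand of the gene. Capitals mark matches to motifs searched on both strands: NF-kappa B as GGG and CC with 5 bases of any kind between them, C/EBP as TTGC and AA with 2 such bases between them, and the hypoxia element as ACGTG.
Acod1 (chr14:103046762-103047061, plus strand): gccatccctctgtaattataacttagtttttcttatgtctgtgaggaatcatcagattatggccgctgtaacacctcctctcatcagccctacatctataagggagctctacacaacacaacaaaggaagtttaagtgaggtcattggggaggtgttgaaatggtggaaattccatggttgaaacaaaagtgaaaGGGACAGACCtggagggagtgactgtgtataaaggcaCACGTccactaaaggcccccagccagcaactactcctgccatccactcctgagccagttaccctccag
Ptgs2 (chr1:150099781-150100080, plus strand): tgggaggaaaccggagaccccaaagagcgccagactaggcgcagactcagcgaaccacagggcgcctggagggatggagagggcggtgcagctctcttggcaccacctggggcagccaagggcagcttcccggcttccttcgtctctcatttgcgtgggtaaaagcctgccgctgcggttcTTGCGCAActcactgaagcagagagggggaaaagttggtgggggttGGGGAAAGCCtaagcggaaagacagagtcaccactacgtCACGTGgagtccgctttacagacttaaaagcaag
Chil3 (chr3:106167515-106167814, minus strand): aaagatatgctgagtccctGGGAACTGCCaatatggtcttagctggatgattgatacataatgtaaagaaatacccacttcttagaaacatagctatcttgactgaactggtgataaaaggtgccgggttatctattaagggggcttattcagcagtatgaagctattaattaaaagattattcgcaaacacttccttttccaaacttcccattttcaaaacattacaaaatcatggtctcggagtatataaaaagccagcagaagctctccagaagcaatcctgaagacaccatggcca
The NF-kappa B letters began 55 bases before the start site in Acod1, 23 bases before it in Ptgs2 and 231 bases before it in Chil3. In Acod1 a hypoxia element began 18 bases before the start site, and in Ptgs2 such letters began 17 and 18 bases after it, as overlapping matches on the 2 strands. Ptgs2 alone of these 3 windows held the C/EBP letters, which began 69 bases before its start site. The short NF-kappa B letters occurred in 50.8% of 32851 promoter windows of the same length, the hypoxia element in 19.6% and the C/EBP letters in 10.8%. AP-1 letters (TGANTCA, 7.81% of windows), STAT letters (TTC and GAA with 4 bases between them, 6.95%) and ISRE letters (GAAA and GAAA with 2 bases between them, 3.44%) were not found in the 3 windows. The Retnla window, which is not printed, held STAT letters that began 145 bases before its start site and C/EBP letters that began 134 bases before it. A match describes these letters and shows no binding.

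The 4 libraries held 2583 and 2313 cell barcodes with 9288054 and 10759904 UMIs (unique molecular identifiers, counts of single RNA molecules) on day 14, against 2543 and 3486 barcodes with 10730791 and 13610119 UMIs on day 5. After filtering, 2309 and 2155 cells of day 14 and 2428 and 3304 cells of day 5 were used, 10196 in all. The lowest UMI count of any barcode was 1180 and 1317 on day 14, against 500 and 505 on day 5, so the limit for calling a cell ran along the days. To compare shares of cells, each cell was therefore also thinned to 1000 UMIs. Any 2 libraries shared 5 to 16 cell barcodes, at most 0.692% of the smaller one.

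Clusters were made without the 8 genes and named from marker genes. The monocyte- or macrophage-like class held 309 and 621 cells on day 14, against 522 and 534 cells on day 5, in 4 clusters. Cluster 14 was led by Ighg2b, Ms4a7, Ecm1 and Gpnmb and also by Apoe, with Gpnmb and Apoe being genes of macrophages that have taken up lipid or debris, and cluster 15 by Ms4a4c, Ly6i, Plac8 and Ly6c2, genes of classical monocytes newly come from blood. Cluster 16 was led by the granule genes Mpo, Elane and Ctsg and by Ear2 and Ace, Ace being known from non-classical monocytes, but Mpo was found in 1.33% and Elane in 2.66% of its cells and both only on day 5. Cluster 17 was led by Gpnmb, Cfb, Spp1 and Fabp5 and was named by its summed marker score only, since none of the listed markers stood among its 20 leading genes. The name of cluster 14 was the least certain, with a lead of 0.0979 in the marker score over the next class. In an alternative clustering made with the 8 genes, a group of 705 barcodes was likewise led by Ighg2b, Ms4a7 and Gpnmb. It scored closest to border-associated macrophages and was left unnamed, so the class of that setting lacked these cells. The make-up of the class differed between days, with cluster 15 at 69.9% and 61.5% and cluster 17 at 14.9% and 30.6% of the class on day 14. The same clusters held 7.47% and 8.43% and 2.68% and 1.87% of the class on day 5, when cluster 14 held 70.5% and 62.2% and cluster 16 held 19.3% and 27.5%. In a sum over cells of a class, a change in which cells are present and a change of RNA per cell cannot be told apart, and day differences are therefore also given within clusters 15 and 16, which had 20 or more cells in every library.

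Over all cells used, Chil3 had 23465 UMIs in 1679 cells, Thbs1 7918 in 1774 cells, Fn1 4510 in 1584 cells, Arg1 1898 in 304 cells, Ptgs2 1685 in 862 cells and Acod1 1023 in 380 cells. Retnla had 184 UMIs in 6 cells and Nos2 had 5 UMIs in 4 cells. The highest count in 1 cell was 262 UMIs for Chil3, 106 for Retnla and 72 for Arg1. Levels below are CPM, the UMIs of a gene scaled to a total of 1000000 UMIs, summed over the cells of a class or cluster in 1 library. Changes are given on the log2 scale, day 14 relative to day 5, beside their standard error (SE) in edgeR, and adjusted p-values are over all genes tested in that class or cluster. With 2 libraries a day, groups that do not overlap are common by chance. A lack of overlap is therefore a description and no test.

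**Figure D1:**
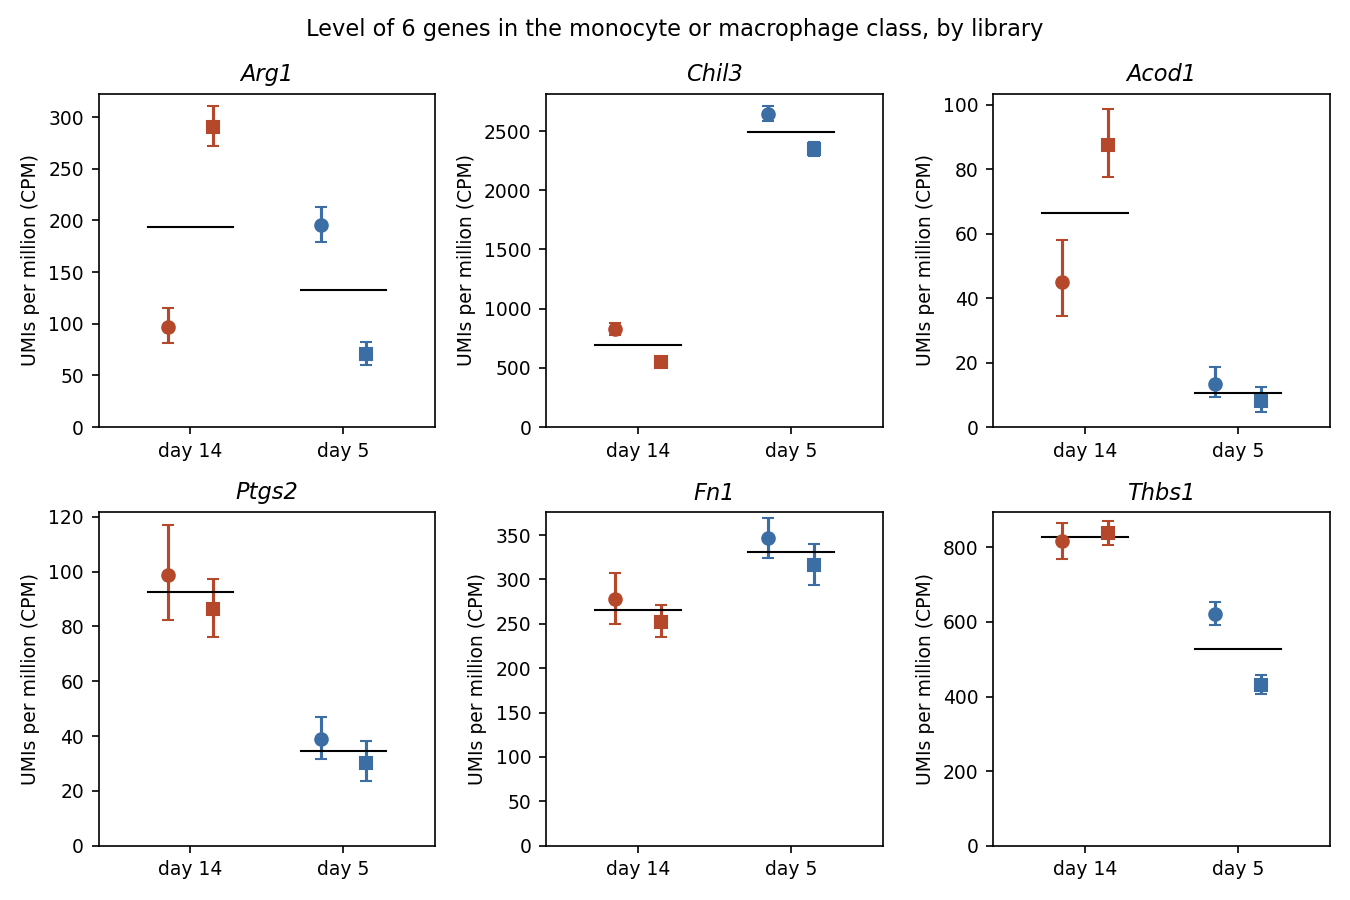
Level of 6 genes in the monocyte- or macrophage-like class, in CPM (linear axis from 0), one point per library with an exact Poisson interval at 95% and a line at the mean of the day, day 14 left and day 5 right. The day 14 points lie below the day 5 points for Chil3 and Fn1 and above them for Acod1, Ptgs2 and Thbs1, while for Arg1 the 2 days overlap.

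Arg1 did not pass the test in the monocyte- or macrophage-like class. In the monocyte- or macrophage-like class it had 97.1 and 291 CPM in the day 14 libraries, against 195 and 70.9 CPM in the day 5 libraries. The days overlapped, and the fitted change of 0.68 ± 0.47 (SE, n = 2 libraries a day) had an adjusted p of 0.419. Its sign rested on a single library. The change was -0.39 without day 14 library 2, 1.58 without day 5 library 1 and 1.23 without day 14 library 1. A day then keeps 1 library, so these fits cannot measure the spread within that day. With all 4 libraries and no filter on low counts, Arg1 was called (0.66, adjusted p = 0.000112). The class held 90.3% of all Arg1 UMIs on day 14 and 90.2% on day 5. T, NK and B cells, which should lack the gene, had 4.87 and 2.04 CPM on day 14 against 0 and 0 on day 5.

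The cells that carried Arg1 differed between the days. On day 14 cluster 17 held 59.1% of the Arg1 UMIs and cluster 15 held 31.0%, whereas on day 5 cluster 14 held 85.4%. Cluster 17 had 285 and 502 CPM of Arg1 on day 14 (12 of 46 and 64 of 190 cells with a UMI), against 12.1 and 94.0 CPM on day 5 in 14 and 10 cells. Cluster 14 had 0 and 7.96 CPM on day 14 in 18 and 25 cells, against 238 and 98.4 CPM on day 5 (58 of 368 and 37 of 332 cells). Cluster 15 had 59.6 and 178 CPM on day 14, against 160.3 and 12 CPM on day 5, so that its days overlapped, and its fitted change was 0.58 (adjusted p = 0.821). In cluster 16 Arg1 was near 0, with 0 and 12.3 CPM on day 14 against 2.87 and 0 CPM on day 5. With cluster 14 left out of the class, the fitted change of Arg1 was 3.03 (adjusted p = 0.0106), and with cluster 17 left out it was -0.23 (adjusted p = 0.787).

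A finer clustering, again made without the 8 genes, set apart a group of cells led by Arg1, F10, Thbs1 and Chil3. It held 14 and 34 cells on day 14, of which 4 and 5 belonged to cluster 14, against 151 and 99 cells on day 5, of which 149 and 96 did. Arg1 had 488 and 1090.3 CPM in it on day 14, against 572 and 212 CPM on day 5. The finer group next to it, led by Ighg2b, Ms4a7, Apoe and Ecm1, had 0 and 9.37 CPM on day 14 in 15 and 20 cells, against 65.2 and 60.0 CPM on day 5 in 229 and 250 cells. Arg1 was thus higher in the first group than in the second in all 4 libraries, which describes the clusters and is no test.

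Chil3 fell in the monocyte- or macrophage-like class and within both of its clusters that could be tested. In the monocyte- or macrophage-like class it had 830 and 550 CPM on day 14, against 2645 and 2346 CPM on day 5, and the groups did not overlap. Its change was -1.78 ± 0.17 (SE, n = 2 libraries a day; adjusted p = 6.24e-05), beside 11% of the 8824 genes of the class called in either direction. The call held in all 21 alternative settings tried. Within cluster 15, where 1.07% of 4869 genes were called, Chil3 had 1075 and 736 CPM on day 14 against 4761 and 3083 CPM on day 5 and changed by -2.07 (adjusted p = 0.0168). Within cluster 16, where 1.16% of 3110 genes were called, it had 1163 and 2217 CPM on day 14 against 5857 and 5919 CPM on day 5 and changed by -1.77 (adjusted p = 5.36e-06).

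Cluster 16 carried the highest Chil3 of the monocyte- or macrophage-like clusters on both days. In cluster 14 Chil3 had 11.3 and 7.96 CPM on day 14, against 2003 and 1196 CPM on day 5. In cluster 17 it had 194 and 227 CPM on day 14, against 917 and 987 CPM on day 5. No library of day 14 reached the lower library of day 5 in any of the 4 clusters. The share of cells of the class with a Chil3 UMI after thinning was 36.2% and 26.7% on day 14, against 51.3% and 44.2% on day 5 (unthinned 52.8% and 45.7% against 63.6% and 54.9%). For such shares an exact permutation test of 2 against 2 libraries cannot go below p = 0.33, two-sided, and this was its value for Chil3. In T, NK and B cells, with a median of 2126 and 2612 UMIs a cell on day 14 against 1453 and 1198.5 on day 5 (in the monocyte- or macrophage-like class 3991 and 4466 against 4686.5 and 4040), the unthinned share was 0.998% and 0.635% on day 14, against 3.38% and 3.15% on day 5.

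Retnla was found in 6 cells only. On day 14 it had 23 UMIs in 1 border-associated macrophage-like cell and 1 UMI each in a cell of cluster 15 and a dendritic cell-like cell, all from library 2. On day 5 it had 52 and 1 UMIs in 2 border-associated macrophage-like cells and 106 UMIs in 1 dendritic cell-like cell, all from library 2. No cell of day 14 library 1 carried it, 0 of 2309 cells, which allows a share of up to 0.130%, nor any of 2428 cells of day 5 library 1, up to 0.124%. It was not tested. Such limits, set at 3 counts, cover counting error only and bound the cells with a UMI, not the cells that express the gene.

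Nos2 was nearly absent, with 0 and 3 UMIs on day 14 against 1 and 1 UMIs on day 5. On day 14 a neutrophil-like cell of cluster 20 had 2 of these UMIs and a cell of cluster 17 had 1, and on day 5 they lay in a microglia-like cell and a cell of an unnamed cluster. The day 14 library without a Nos2 UMI allows a share of up to 0.130% of its cells with a UMI. At this depth an arginase-type gene can therefore not be set against Nos2 within a cell, and the inflammatory-type genes that follow are Acod1 and Ptgs2.

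Acod1 rose in the monocyte- or macrophage-like class. It had 45.2 and 87.7 CPM on day 14, against 13.4 and 7.97 CPM on day 5, a change of 2.78 ± 0.33 (SE, n = 2 libraries a day; adjusted p = 0.000339) between groups that did not overlap. Without day 14 library 2 the change was 2.12, and without day 5 library 1 it was 3.20. After thinning, 4.53% and 4.99% of the cells on day 14 had an Acod1 UMI, against 0.786% and 0.574% on day 5 (exact permutation p = 0.33, two-sided), and unthinned 9.71% and 14.0% against 2.49% and 1.87%. T, NK and B cells had it unthinned in 0.599% and 1.11% on day 14, against 0% and 0.394% on day 5.

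Cluster 17 held the highest Acod1 of the class on day 14. It had 146 and 185 CPM on day 14 (20 of 46 and 62 of 190 cells), against 0 and 172 CPM on day 5 (0 of 14 and 2 of 10 cells). Cluster 15 had 22.2 and 27.3 CPM on day 14, against 65.3 and 24.0 CPM on day 5, with a fitted change of -0.76 (adjusted p = 0.522) that did not pass the test. In cluster 14 the gene had 0 and 47.7 CPM on day 14, against 11.6 and 1.83 CPM on day 5. With cluster 17 left out, the class change of Acod1 was 1.51 (adjusted p = 0.0332), and with cluster 15 left out it was 4.06 (adjusted p = 4.38e-07). Of all Acod1 UMIs, neutrophil-like cells held 46.3% on day 14 and 44.9% on day 5, and the monocyte- or macrophage-like class held 40.2% on day 14 and 26.8% on day 5.

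Ptgs2 rose in the same class, with 98.6 and 86.4 CPM on day 14 against 38.9 and 30.2 CPM on day 5. The groups did not overlap, and the change was 1.49 ± 0.16 (SE, n = 2 libraries a day; adjusted p = 0.000169). Here cluster 15 was the main carrier on day 14, with 129.8 and 125 CPM, against 47.5 and 42.1 CPM on day 5 in 39 and 45 cells. Its change within the cluster, 1.55, had an adjusted p of 0.0526. Cluster 17 had 54.8 and 40.8 CPM of Ptgs2 on day 14, against 12.1 and 15.7 CPM on day 5. With cluster 15 left out of the class the change was 0.34 (adjusted p = 0.504). The thinned share of Ptgs2 cells was 7.12% and 6.92% on day 14, against 4.91% and 3.25% on day 5, and T, NK and B cells had 0.2% and 0.317% on day 14 against 0% and 0% on day 5.

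Among clusters 14 to 17, Acod1 was thus highest in cluster 17 and Ptgs2 in cluster 15, in both libraries of day 14. No test was made between clusters, which were defined on these cells.

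**Figure D2:**
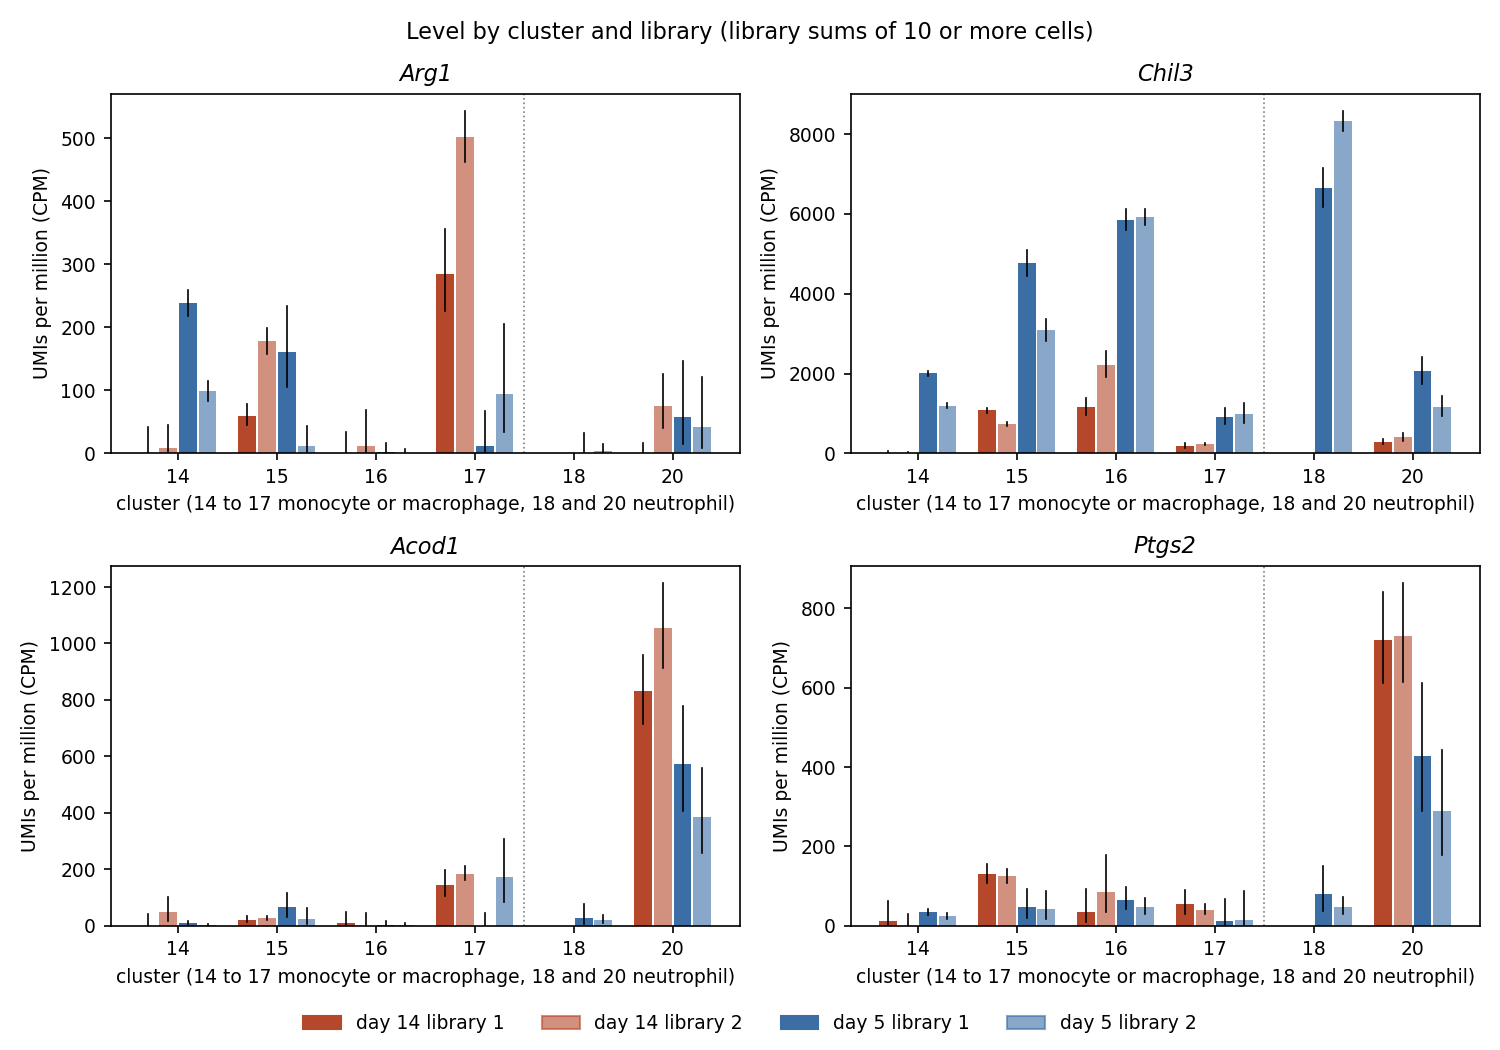
Level of Arg1, Chil3, Acod1 and Ptgs2 in CPM (linear axes from 0) in monocyte- or macrophage-like clusters 14 to 17 and neutrophil-like clusters 18 and 20, one bar per library with an exact Poisson interval at 95%, day 14 left of day 5. Arg1 is highest in cluster 17 on day 14 and in clusters 14 and 15 of library 1 on day 5, Chil3 is high on day 5 in clusters 15, 16 and 18, and Acod1 and Ptgs2 are highest in cluster 20.

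Fn1 did not pass the test in the monocyte- or macrophage-like class. It had 278 and 253 CPM on day 14, against 346 and 316 CPM on day 5, and the change of -0.24 ± 0.12 (SE, n = 2 libraries a day) had an adjusted p of 0.247 although the groups did not overlap. Cluster 15 had 319 and 289 CPM on day 14 against 516 and 349 CPM on day 5, and cluster 16 had 306 and 271 CPM on day 14 against 439 and 505 CPM on day 5. Neither cluster passed the test for Fn1, with changes of -0.46 and -0.65. With cluster 14 left out of the class the change was -0.53 (adjusted p = 0.0378), and with cluster 15 left out it was -0.58 (adjusted p = 0.0262).

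Thbs1 rose in the class, with 816 and 838 CPM on day 14 against 622 and 432 CPM on day 5. The change was 0.74 ± 0.16 (SE, n = 2 libraries a day; adjusted p = 0.0128) between groups that did not overlap. It was lost without day 5 library 2 (0.49, adjusted p = 0.0707) and without cluster 15 (0.09, adjusted p = 0.897), and with finer clusters it was 0.11 (adjusted p = 0.828). With clusters made with the 8 genes it was -0.0036 (adjusted p = 0.998), in a class that lacked the unnamed group led by Ighg2b and Ms4a7. Cluster 15 itself had 1057 and 1030.4 CPM on day 14, against 867 and 962 CPM on day 5, and its change of 0.24 did not pass. Cluster 14 had 283 and 159 CPM on day 14, against 644 and 409 CPM on day 5. Cells of the class with a Thbs1 UMI made up 70.9% and 80.8% on day 14 against 62.1% and 48.3% on day 5 unthinned, the highest share of the 8 genes on day 14, while on day 5 Chil3 was higher. After thinning the shares were 43.7% and 50.4% on day 14, against 35.8% and 28.5% on day 5.

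Of the 8 genes, 6 passed the filter on low counts in the monocyte- or macrophage-like class and Retnla and Nos2 did not. Of the 6, Acod1, Ptgs2 and Thbs1 were called higher, where 7.34% of all genes were, Chil3 was called lower, where 3.62% were, and Arg1 and Fn1 were not called. Markers of other cell types moved with the day in this class, some lower and some higher on day 14. Its 10 microglial markers summed to 1311 and 1277 CPM on day 14, against 2933 and 3547 CPM on day 5, and its 11 neutrophil markers to 206 and 202 CPM on day 14, against 318 and 653 CPM on day 5. All 11 neutrophil markers had a UMI on day 5 and 9 of them on day 14, with Ngp at 0 in both day 14 libraries. Other sets went the opposite way in this class. Plasmacytoid dendritic cell markers summed to 1196 and 1345 CPM on day 14, against 599 and 739 CPM on day 5. T cell markers summed to 53.5 and 41.4 CPM on day 14, against 4.48 and 9.23 CPM on day 5. For NK cell markers the sums were 56.5 and 47.6 CPM on day 14, against 10.8 and 23.5 CPM on day 5. The 11 markers of the class itself summed to 17096 and 15956 CPM on day 14, against 5370 and 5732 CPM on day 5. The part of these differences in the changes of the 8 genes was not tested beyond the clusters given above and a setting without the cells of the class that held 2 or more UMIs of 6 neutrophil genes, which changed no call of the 6.

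Outside the monocyte-like clusters, neutrophil-like cells (87 and 69 on day 14, against 196 and 244 on day 5) carried the highest levels of Acod1 and Ptgs2. Acod1 had 786 and 1028 CPM there on day 14, against 133 and 63.5 CPM on day 5, a change of 3.20 (adjusted p = 0.000371). Ptgs2 had 686 and 722 CPM on day 14, against 241 and 115 CPM on day 5, a change of 1.96 (adjusted p = 0.0021). Chil3 had 326 and 389 CPM on day 14, against 2805 and 6053 CPM on day 5, a change of -3.78 (adjusted p = 0.000988). The 12 genes of immediate early response and cell handling stress moved with the day in this class too, with a sum of 11347 and 12116 CPM on day 14, against 6893 and 4951 CPM on day 5, and with 5 of 11 tested genes higher and 0 lower. Their part in the changes of the 8 genes was not tested. Acod1, Ptgs2 and Chil3 did not overlap between the days. Of the 3398 genes of the class, 11.1% were called higher and 5.21% lower, 16.3% in all. Thbs1 (764 and 1059 CPM on day 14, against 295 and 211 CPM on day 5; 1.78, adjusted p = 0.0014) and Fn1 (169 and 275 CPM on day 14, against 46.0 and 90.0 CPM on day 5; 1.49, adjusted p = 0.0378) also rose, Fn1 not without day 14 library 1 (adjusted p = 0.0511).

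The kind of neutrophil differed between the days as well. On day 14, 81 of 87 and 66 of 69 of these cells lay in cluster 20, led by Cxcl2, Il1f9, G0s2 and Acod1, against 41 of 196 and 50 of 244 on day 5. Cluster 18, led by the granule genes Camp, Ngp and Ltf of immature neutrophils, held 1 and 0 cells on day 14, against 27 and 105 cells on day 5. It had 6653 and 8325 CPM of Chil3 on day 5. Within cluster 20 alone, Chil3 still fell (-2.21, adjusted p = 0.0067), while the changes of Acod1 (0.99, adjusted p = 0.0721), Ptgs2 (1.02, adjusted p = 0.0504), Thbs1 (1.15, adjusted p = 0.0591) and Fn1 (0.93, adjusted p = 0.287) did not pass. The 11 neutrophil markers summed to 36548 and 41093 CPM in the class on day 14, against 135485 and 259392 CPM on day 5, and the 11 monocyte markers to 7834 and 8410 CPM on day 14, against 1711 and 2283 CPM on day 5.

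In microglia-like cells (221 and 129 on day 14, against 795 and 1306 on day 5), where 3.31% of 7951 genes were called higher and 1.11% lower (4.41% in all), the levels were lower. Chil3 had 7.54 and 5.32 CPM on day 14, against 30.0 and 31.5 CPM on day 5 (-2.07, adjusted p = 0.00392). The same gene had 4.06 and 2.04 CPM in T, NK and B cells on day 14, against 19.0 and 20.2 CPM on day 5, and 4.68 and 2.92 CPM in dendritic cell-like cells on day 14, against 25.8 and 24.2 CPM on day 5. Chil3 outside the monocyte-like and neutrophil-like classes thus lay near the level of cells that should lack it, and its change there (-2.76 in dendritic cell-like cells, adjusted p = 3.3e-05) is given without a reading of expression. In microglia-like cells the call for Chil3 was lost with DESeq2 (adjusted p = 0.0766). Acod1 had 8.80 and 26.6 CPM in microglia-like cells on day 14, against 2.14 and 3.5 CPM on day 5 (2.58, adjusted p = 0.0129), beside 2.44 and 7.67 CPM in T, NK and B cells on day 14 and 0 and 2.52 CPM on day 5. That call for Acod1 was lost without any one of day 14 library 2, day 5 library 1 and day 5 library 2, with adjusted p of 0.374, 0.209 and 0.117.

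The microglia-like class lay in other clusters on the 2 days. Cluster 22, led by Cst7, Apoc1 and Igf1, held 104 of 221 and 54 of 129 of its cells on day 14, against 0 of 795 and 1 of 1306 on day 5, and cluster 7, led by Ttr, Cd5l and Mmp12, held 19 and 23 cells on day 14, against 528 and 613 on day 5. Ptgs2 and Fn1 were higher in microglia-like cells on day 14 as well. Ptgs2 had 35.2 and 33.7 CPM on day 14, against 11.6 and 7.27 CPM on day 5 (2.07, adjusted p = 0.0014). Fn1 had 79.2 and 224 CPM on day 14, against 43.7 and 49.3 CPM on day 5 (1.77, adjusted p = 0.0032). Within cluster 2 alone, led by P2ry12 and Tmem119, the changes were 1.97 for Ptgs2 (adjusted p = 0.00358), 1.90 for Fn1 (adjusted p = 0.00455) and -3.11 for Chil3 (adjusted p = 0.00579). In dendritic cell-like cells, where 9.42% of 8883 genes were called higher and 8.67% lower (18.1% in all), Fn1 fell (10.5 and 12 CPM on day 14, against 43.7 and 31.6 CPM on day 5; -1.69), and Ptgs2 with 29.3 and 25.3 CPM on day 14 against 42.9 and 35.6 CPM on day 5 did not pass (-0.52, adjusted p = 0.0667). Acod1 (10.5 and 6.80 CPM on day 14, against 1.99 and 1.48 CPM on day 5; 2.24, adjusted p = 0.00646) and Thbs1 (13.5 and 24.6 CPM on day 14, against 11.1 and 6.42 CPM on day 5; 1.20, adjusted p = 0.024) were called there at levels near those of T, NK and B cells. In those cells Thbs1 had 16.2 and 14.3 CPM on day 14, against 5.44 and 12.6 CPM on day 5, so both calls are given without a reading of expression. Of the dendritic cell-like cells, cluster 5 held 8 of 317 and 13 of 518 on day 14, against 326 of 444 and 281 of 440 on day 5. Its part in the changes was not tested.

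Whether the day difference itself differed between classes was tested as a class by day interaction with the library as a block. Against neutrophil-like cells, 3 of the 6 genes differed where 3.25% of 7671 genes did, 1.06% with a higher and 2.19% with a lower change in monocyte-like cells. Chil3 fell less in monocyte-like cells (difference of log2 changes 1.75 ± 0.35, adjusted p = 0.00359), and Fn1 (-1.82 ± 0.35, adjusted p = 0.00314) and Thbs1 (-1.09 ± 0.22, adjusted p = 0.00468) had a lower change there. The difference for Chil3 was lost without day 14 library 1 (1.41, adjusted p = 0.122) and that for Thbs1 without day 14 library 2 (-0.85, adjusted p = 0.0594). Against microglia-like cells (2.1% of 9591 genes, 0.949% higher and 1.15% lower) Fn1 differed (-1.97 ± 0.28, adjusted p = 4.94e-05), and against dendritic cell-like cells (7.88% of 9579 genes, 5.47% higher and 2.41% lower) Ptgs2 (1.98 ± 0.22, adjusted p = 2.55e-07) and Fn1 (1.41 ± 0.23, adjusted p = 7.96e-05) did. For Acod1 no difference between classes passed, with estimates of -0.56 ± 0.33, 0.11 ± 0.62 and 0.56 ± 0.73 against neutrophil-like, microglia-like and dendritic cell-like cells.

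**Figure D3:**
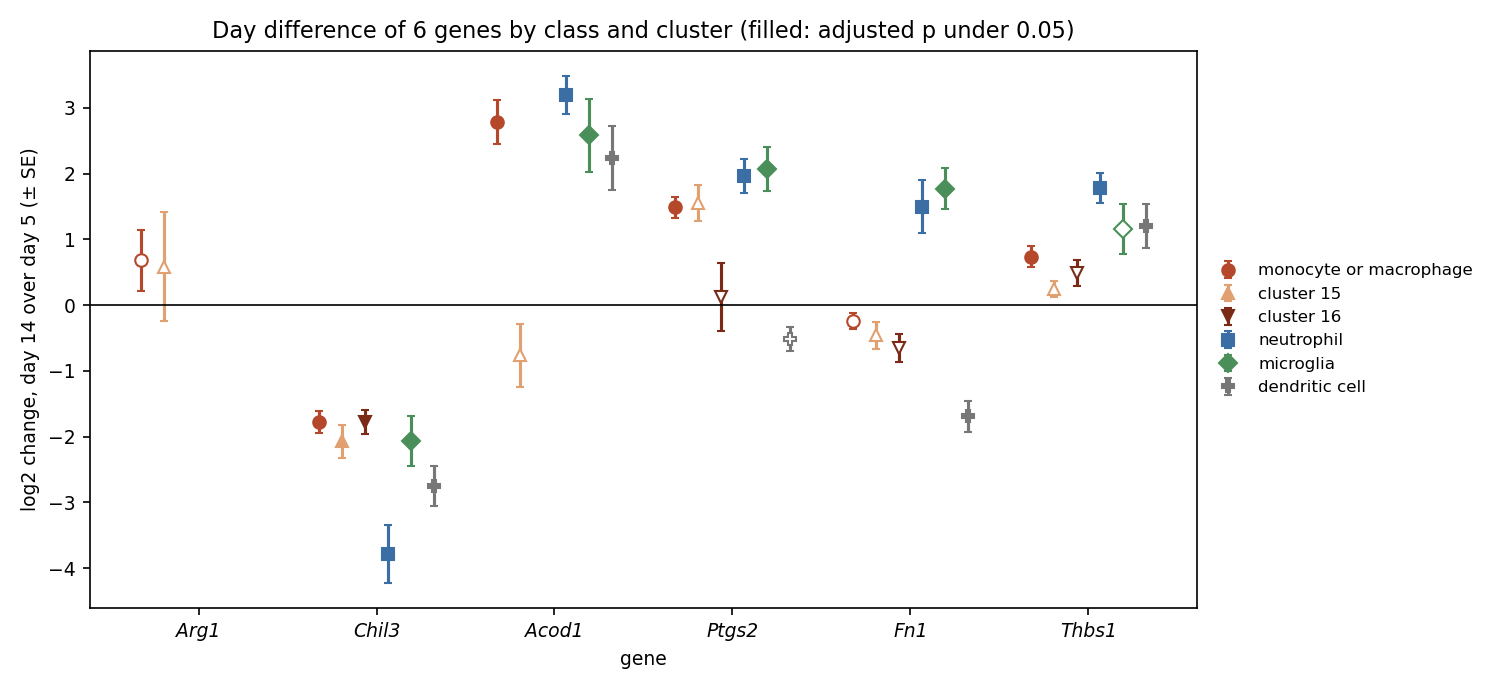
Log2 change of day 14 over day 5 (vertical axis, ± SE of the edgeR fit over 2 libraries a day) of 6 genes in 4 cell classes and in monocyte-like clusters 15 and 16, with filled symbols for an adjusted p under 0.05. Chil3 lies below 0 in all 6 of them, Acod1 lies above 0 in the 4 classes but not in cluster 15, and Fn1 lies above 0 in neutrophil-like and microglia-like cells only.

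Arginase-type and inflammatory-type genes were found in the same cells, at about the share that cells without an arginase-type gene also showed. Cells of the class that held neutrophil genes were not left out here, and their part in these shares was not tested. After thinning, 13 of 309 and 26 of 621 cells of the monocyte- or macrophage-like class on day 14 held a UMI of Arg1, Chil3 or Retnla together with one of Nos2, Acod1 or Ptgs2 (4.21% and 4.19%), against 18 of 509 and 10 of 523 cells on day 5 (3.54% and 1.91%; exact permutation p = 0.33, two-sided, the smallest 2 against 2 libraries can give). Among cells with an arginase-type gene, 10.9% and 12.9% on day 14 also held an inflammatory-type gene, against 6.55% and 4.17% on day 5. Among cells without an arginase-type gene the shares were 12.1% and 11% on day 14, against 4.70% and 3.53% on day 5. On day 14 the cells with an arginase-type gene lay below the others in library 1 and above them in library 2, and on day 5 they lay above the others in both libraries. Unthinned, both kinds were found in 16.8% and 18.5% of the cells on day 14, against 10.7% and 8.24% on day 5. A stricter count asked for 2 or more UMIs of 1 and the same gene of each kind after thinning. The shares were then 0.971% and 0.483% on day 14, against 0% and 0% on day 5, and no cell of the class held Arg1 and Acod1 in this way.

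Most of these pairs came from Chil3, which the majority of the arginase-type cells carried, and Arg1 by itself gave another pattern. After thinning, 4 of 11 and 3 of 50 cells with Arg1 had an Acod1 UMI on day 14, against 0 of 37 and 0 of 18 on day 5. Unthinned, these were 8 of 23 and 24 of 103 cells on day 14 (34.8% and 23.3%), against 1 of 63 and 0 of 40 cells on day 5 (1.59% and 0%). Cells without Arg1 had Acod1 in 7.69% and 12.2% on day 14, against 2.61% and 2.02% on day 5. Unthinned, Acod1 was thus more frequent beside Arg1 than without it in both libraries of day 14. After thinning, 4.53% and 4.99% of all cells of the class had Acod1 on day 14. The 4 of 11 cells with Arg1 in library 1 lay above this, and the 3 of 50 in library 2 lay close to it. On day 5 Acod1 was too rare for so few cells with Arg1 to show a difference either way. Depth was not equalised in the unthinned shares, and thinning left few cells to count.

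Within cluster 17, which carried both genes on day 14, the pairing was no longer seen in library 2. There Acod1 was found unthinned in 7 of 12 and 20 of 64 cells with Arg1 (58.3% and 31.2%) and in 38.2% and 33.3% of the cells without it. In cluster 14 on day 5, where most Arg1 then lay, 0 of 58 and 0 of 37 cells with Arg1 had an Acod1 UMI, and 3.23% and 1.02% of the other cells did. In neutrophil-like cluster 20, Acod1 and Ptgs2 were found together in 39.5% and 50% of the cells on day 14, against 12.2% and 8% on day 5, unthinned. Monocyte-like cells held that pair in 2.27% and 3.06% on day 14, against 0.958% and 0.187% on day 5.

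Fn1 went with Arg1 in every library. After thinning, Fn1 was found in 54.5% and 34.0% of cells with Arg1 on day 14, against 43.2% and 61.1% on day 5. In cells without Arg1 it was found in 18.5% and 20.5% on day 14, against 24.4% and 23.4% on day 5. Chil3 was found in 36.4% and 30.0% of cells with Arg1 on day 14, against 62.2% and 50% on day 5, close to the 36.2% and 26.4% of cells without Arg1 on day 14 and the 50.4% and 44.0% on day 5.

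**Figure D4:**
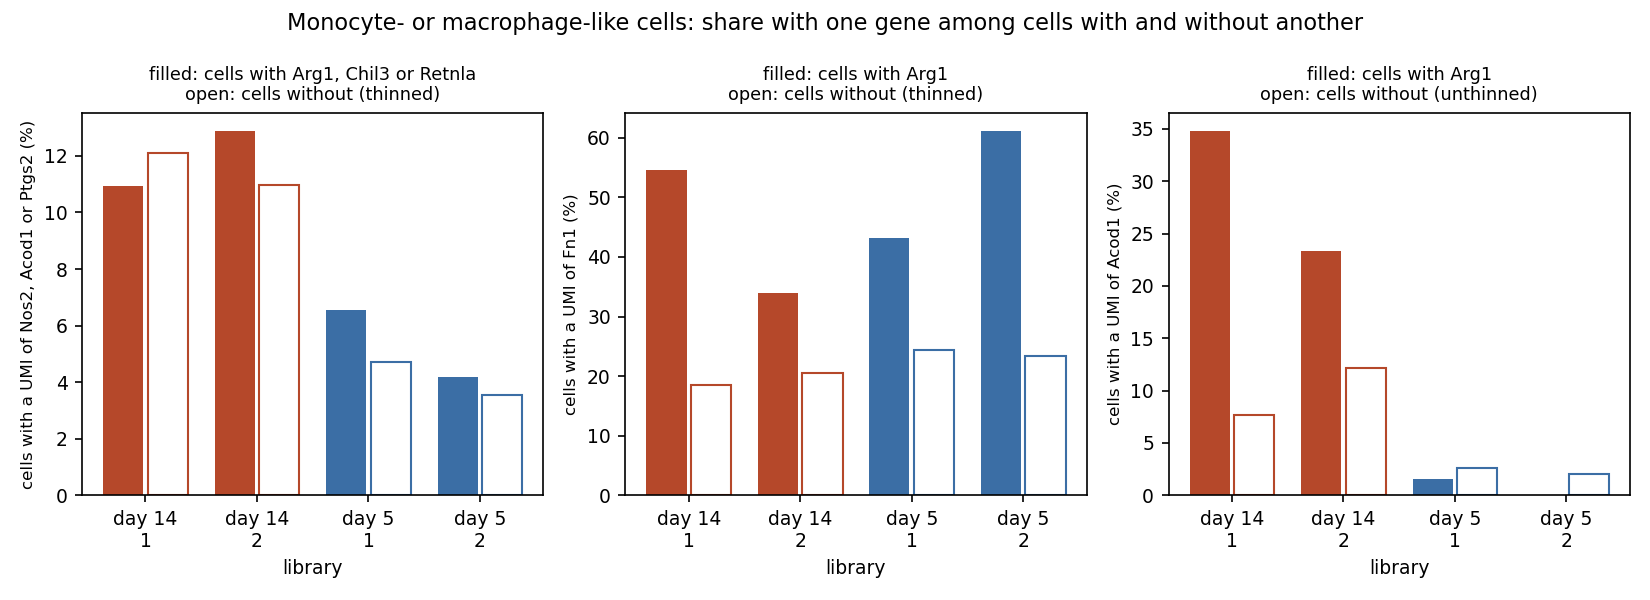
Share of monocyte- or macrophage-like cells with a UMI of an inflammatory-type gene (left, thinned), of Fn1 (middle, thinned) and of Acod1 (right, unthinned), in percent from 0, in each library, for cells with (filled) and without (open) an arginase-type gene or Arg1. The pairs of bars are close at left, the filled bar is higher in all 4 libraries for Fn1, and for Acod1 it is higher in the day 14 libraries only.

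What else the carrying cells held was tested within libraries at equal depth, with cells thinned to 1000 UMIs, summed per library and compared with the library as a block. Cells with Arg1 (11 and 50 on day 14, against 37 and 18 on day 5) differed from the other cells of the class in 111 of 2250 genes (4.93%, with 1.64% higher and 3.29% lower). Fn1 was higher in them by 1.14 ± 0.22 (SE, adjusted p = 2.68e-05, higher in 4 of 4 libraries), while Thbs1 (0.54, adjusted p = 0.0592), Chil3 (-0.12, adjusted p = 0.844) and Ptgs2 (-1.03, adjusted p = 0.581) did not pass. Higher as well were the monocyte-attracting chemokines Ccl7 (2.32) and Ccl2 (1.30), the crosslinking enzyme Tgm2 (1.46), the lysosomal membrane protein Gpnmb (1.24), the fatty acid carrier Fabp5 (1.14), osteopontin (Spp1, 1.13), and Basp1 (1.69), Emp1 (1.56) and Cd24a (1.19). Lower were the genes of antigen presentation by MHC class II, H2-Aa (-2.63), H2-Eb1 (-2.49), H2-Ab1 (-2.49) and Cd74 (-2.36), and Klra2 (-2.98). Gpnmb, Spp1, Fabp5, Ccl7, Ccl2 and Emp1 also stood among the 20 leading genes of cluster 17, which held most Arg1 UMIs on day 14. This split, like those by Chil3 and Acod1 below, was made over the whole class. The part of the clusters in these differences was not tested. On the CPM scale of the edgeR fit, after TMM normalisation, H2-Aa averaged 399 in cells with Arg1 and 3129 in cells without it, and the CPM of the next 2 comparisons are on that scale.

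Cells with Chil3 (112 and 166 on day 14, against 261 and 231 on day 5) differed in 155 of 3003 genes (5.16%, with 2.56% higher and 2.6% lower). Both matrix-type genes were higher in them, Thbs1 by 1.04 ± 0.14 (adjusted p = 3.05e-05) and Fn1 by 0.70 ± 0.15 (adjusted p = 0.00533), each in 4 of 4 libraries. Fn1 was not called in the 2 libraries of day 14 alone (0.22, adjusted p = 0.843). Arg1 (0.18, adjusted p = 0.697), Acod1 (-0.17, adjusted p = 0.905) and Ptgs2 (0.13, adjusted p = 0.896) did not pass the test. Higher were also haptoglobin (Hp, 1.26), Cd177 (1.45), Mmp8 (1.35) and the protease inhibitor Slpi (1.00), genes shared with neutrophils, the glutathione reductase Gsr (1.04), the isocitrate dehydrogenase Idh1 (0.94), and Ms4a8a (1.29), AI839979 (1.12) and Camkk2 (0.98). Lower were H2-Eb1 (-2.32), H2-Aa (-1.91), H2-Ab1 (-1.84), Cd74 (-1.74) and the complement gene C1qc (-1.48). Cells with Arg1 and cells with Chil3 overlap in part, so these 2 lists are not independent.

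Cells with Acod1 were numerous enough on day 14 only (14 and 31 cells, with 14000 and 31000 UMIs in all after thinning), and 110 of 2533 genes differed (4.34%, with 2.33% higher and 2.01% lower) by edgeR and 13 by DESeq2. Arg1 averaged 437 CPM in them and 185 CPM in the others (0.91 ± 0.51, adjusted p = 0.400, higher in 1 of 2 libraries), and Chil3 545 CPM and 935 CPM (-0.79 ± 0.34, adjusted p = 0.184, lower in both). The interferon-induced chemokine Cxcl10 was higher by 2.86 (2273 CPM and 317 CPM). The lipid receptor gene Gpr84 (2.98), the growth factor Csf1 (2.91), the oxysterol receptor Nr1h3 (2.78), the RNA-editing enzyme Adar (2.57) and Tmco3, Wsb2, Lap3, Rgl1 and AA467197 (2.53 to 3.12) were higher too. Emb (-2.63) and Lsp1 (-2.59) were lower, and Clec4a2, Sirpb1b and Ppp1r18 had no UMI in the cells with Acod1, against 233, 227 and 166 CPM in the others. Apart from Cxcl10 and AA467197, the higher genes named rested on few UMIs in these small sums. In the cells with Acod1, Tmco3 had 147 and 107 CPM and Nr1h3 had 73.7 and 321 CPM. Such fold changes, and those of the lower genes, are therefore uncertain.

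The pathways around the 8 genes were read from lists in the monocyte- or macrophage-like class, where the median change of all 8824 genes was -0.01. Levels of list genes are CPM after TMM normalisation, a scale that differs slightly from the CPM above. In the arginine and polyamine list, 3 of 10 tested genes rose and 2 fell (median change 0.07). Ass1, which rebuilds arginine from citrulline, rose by 1.67 (196 and 270 CPM on day 14, against 73.6 and 73.8 CPM on day 5), and Oat, which turns ornithine towards proline, fell by 0.57 on the log2 scale. In the list of itaconate and tricarboxylic acid enzymes, 2 of 12 rose and 2 fell (median -0.14), with Acod1 and the interferon-induced factor Irf1 (0.91) higher and Idh2 (-0.72) and Idh1 (-0.59), which use isocitrate, lower.

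Ptgs2 was the 1 gene of 11 that rose in the list of prostanoid and leukotriene synthesis, where 4 fell and the median change was -0.62. The genes that fell included Ltc4s, which makes leukotriene C4 (-1.84), the prostaglandin D synthase Hpgds (-1.17) and the thromboxane synthase Tbxas1 (-0.59). The direction of Hpgds and Tbxas1 turned with cluster 14 left out (0.49 and 0.66). In the interleukin 4 and 13 list, 4 of 13 rose and 1 fell, with a median of 0.56. Chil3 was the gene that fell, and the receptor chains Il2rg (0.87) and Il13ra1 (0.56) and the factor Klf4 (0.71) were among those that rose, Il13ra1 not without cluster 14 (-0.29) or cluster 15 (-0.40).

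In the list of inflammatory activation 7 of 15 rose and none fell at the threshold, with a median of 1.15. Beside Acod1 and Ptgs2, Cxcl10 rose by 2.04 (247 and 449 CPM on day 14, against 88.2 and 82.8 CPM on day 5) and the costimulatory receptor gene Cd40 by 1.68. In the matrix list 5 of 14 rose and 2 fell (median -0.04). Spp1 rose by 1.86 but changed by -0.93 with cluster 17 left out, Cd47, a receptor of thrombospondin 1, rose by 0.91, and Sparc, which is also a marker of microglia, fell by 1.72 on the log2 scale. In the hypoxia list 3 of 10 rose and none fell (median 0.26), among them Hif1a (1.09) and the hexokinase Hk2 (0.87). Genes of immediate early response and cell handling stress went both ways, with 2 of 12 higher and 2 lower, such as Fos (0.43), Jun (-0.75) and Egr1 (-0.56). Each of these counts stands beside the 11% called over all genes of the class, and all of the lists but the last 2 hold genes of the 8.

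Within cluster 15, which had 39 and 45 cells on day 5, 1.07% of 4869 genes were called, against 11% in the class. A short list without a call there is therefore no sign that its genes behaved otherwise than in the class. Of the genes tested there, the arginine, itaconate, prostanoid, hypoxia and immediate early lists had none called at the threshold in either direction. The inflammatory activation list had 0 of 14 higher and 2 lower with a median change of -0.39, the matrix list had 0 of 13 higher and 1 lower (median -0.22), and the interleukin 4 and 13 list had 0 of 9 higher and 1 lower, where 0.616% of the genes of the cluster were called higher and 0.452% lower.

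Over 48 sums of a myeloid cluster in a library, and among 4863 genes, the levels most like those of Arg1 were found for Cstb (Pearson r of log2 values 0.714), Ecm1 (0.706), Cd93 (0.698), Cfb (0.694) and App (0.670). For Chil3 they were Hp (0.922), Mgst1 (0.907), Hes1 (0.880), Cd177 (0.867) and Prdx5 (0.867). For Acod1 they were Slfn4 (0.870), Gm13822 (0.862), Il1rn (0.845), Arg2 (0.814) and Il1f9 (0.810). Among the 8 genes themselves, Thbs1 was the one most like Arg1 (0.639) and most like Chil3 (0.829), and Ptgs2 the one most like Acod1 (0.682). Arg1 and Chil3 had 0.363 and Arg1 and Acod1 0.447. The sums share libraries, so these values describe the data and carry no test.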

How the data were processed

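The deposited tables hold UMI counts per gene and cell barcode for 4 libraries, which the authors made from 10x 3′ v2 reads with Cell Ranger 3.0.1 and GRCm38, per the submitters' processing notes, which also name Seurat 2.3.4. Per the file headers, the day 5 tables were written by version 3.0.1, while the day 14 headers name no version. Barcodes with under 200 genes or over 10% mitochondrial UMIs were left out, as were 639 mixed cells. These were lymphocyte-like cells with over 2% of UMIs from phagocyte genes, or cells of another class with 3 or more T or B cell gene UMIs. T cell genes in NK-like cells were allowed, and neutrophil genes were not part of this rule. Scrublet marked 8 cells (0.0738%), too few for it to have worked, and these were left out as well.

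Cells were clustered with scanpy 1.11.5 and leidenalg 0.10.2 in Python 3.11.15 (2000 variable genes without the 8 genes, 30 components, 20 neighbours, resolution 1, 23 clusters) and named from marker lists. A cluster needed 3 or more markers at 50 CPM and either a marker among its 20 leading genes or a score margin of 0.5. Counts were summed per library and class and tested with edgeR 4.0.16 (R 4.3.3; quasi-likelihood, TMM, filterByExpr, Benjamini-Hochberg, threshold 0.05), with DESeq2 1.42.0 as an alternative. Classes and clusters with 20 or more cells in every library were tested, and the steps were tested on simulated data. Intervals are exact at 95%, and floors use 3 counts.

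The members and lists were chosen with earlier results of these data known. Named from the lists were up to 4 called genes each with the largest fold, and from the cells carrying a gene up to 10 higher and 5 lower genes with the same sign in every library, at 50 CPM or more. Genes of like pattern were ranked by Pearson r of log2(CPM + 10). Replicate numbers were not used as a block, since nothing ties equal numbers to one animal. Alternatives were DESeq2, no filter on low counts, other clusterings, thinning, leaving out each library and cluster, and the block. Leaving out clusters, single clusters alone and crossed numbers were chosen after seeing the data.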

Additional observations from a re-analysis of the deposited data

Results flagged for a closer look

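The day difference itself differed between cell classes for 4 of the 8 genes, by the class by day interaction in edgeR. Chil3 fell less in monocyte- or macrophage-like cells than in neutrophil-like cells, with a difference of the log2 changes of 1.75 (adjusted p = 0.00359). Fn1 had a lower change in the monocyte- or macrophage-like class than in neutrophil-like cells (-1.82, adjusted p = 0.00314) and than in microglia-like cells (-1.97, adjusted p = 4.94e-05), and a higher one than in dendritic cell-like cells (1.41, adjusted p = 7.96e-05). Thbs1 had a lower change than in neutrophil-like cells (-1.09, adjusted p = 0.00468). As given above, the difference for Chil3 was lost without day 14 library 1 and that for Thbs1 without day 14 library 2. Ptgs2 had a higher change than in dendritic cell-like cells (1.98, adjusted p = 2.55e-07). Neutrophil-like, microglia-like and dendritic cell-like cells lay to a large extent in different clusters on the 2 days, as did the monocyte- or macrophage-like class, and the part of this in the differences was not tested.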

How the results depend on the processing

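Few cells, 2 libraries a day and shifting clusters limit these results, and the causes of the changes below were not tested. Over all alternatives, 105 counts and shares stayed near their value and 58 moved, while of the values of single genes 1092 kept their direction and side of the threshold, 165 lost the call, 24 gained it and 37 turned.

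With DESeq2 the genes called were 487 in monocyte- or macrophage-like, 292 in neutrophil-like, 184 in microglia-like and 709 in dendritic cell-like cells. They were 105, 66 and 230 for the interactions with neutrophil-like, microglia-like and dendritic cell-like cells, and 47, 54 and 13 for cells with Arg1, Chil3 and Acod1. The Arg1 interaction with neutrophil-like cells was 0.047 and Thbs1 in cells with Acod1 was -0.057. With no filter on low counts 559 genes were called in microglia-like cells. Finer clusters gave 447 calls in the monocyte- or macrophage-like class, with Hpgds at 0.10 and Tbxas1 at 0.0076. Clustering with the 8 genes, where the group led by Ighg2b and Ms4a7 was unnamed and outside the class, gave 408 calls. Thbs1 was then -0.0036 and Hpgds 0.24. Thinning to 1000 UMIs gave 432, 338, 100 and 538 calls in the 4 classes.

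Without cluster 14 there were 478 calls, with Egr1 at 0.14, Hpgds at 0.49, Il13ra1 at -0.29 and Tbxas1 at 0.66. Without cluster 15 there were 487, with Il13ra1 at -0.40. Without cluster 17, the same setting for this class as leaving out clusters with no leading marker, there were 1581, with Arg1 at -0.23 and Spp1 at -0.93. In cluster 20 alone 54 genes were called.

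Unthinned, 417, 330 and 179 genes were called for cells with Arg1, Chil3 and Acod1. Ptgs2 was then 0.044 in cells with Arg1, and Ptgs2, Fn1 and Thbs1 were 0.13, -0.11 and -0.60 in cells with Acod1. The day 14 minus day 5 differences of the unthinned shares were -9.99 percentage points for Chil3, 9.68 for Acod1, 10.5 for Ptgs2, -6.09 for Fn1, 20.7 for Thbs1 and 8.19 for cells with both kinds of gene. Thinned to 2000 UMIs, 180 and 287 genes were called for cells with Arg1 and Chil3. Arg1 was -0.33 in cells with Chil3, Fn1 and Thbs1 were -0.39 and -0.32 in cells with Acod1, and the shares differed by 4.70 (Acod1), 6.23 (Ptgs2), -8.94 (Fn1) and 3.61 points (both kinds). With day 14 alone 21 and 77 genes were called for cells with Arg1 and Chil3, with Ptgs2 at -0.048 in cells with Chil3, and with day 5 alone 44 for cells with Arg1. The share with both kinds differed by 0.301 points within cluster 15 and 3.63 points within cluster 17. The test of cells with Acod1 was not run with day 5 alone or with a library left out, since no fit was left.

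Leaving out each library in turn gave 768 to 1256 calls in the monocyte- or macrophage-like class, 213 to 652 in neutrophil-like, 283 to 374 in microglia-like and 1178 to 1830 in dendritic cell-like cells, 74 to 253 in cluster 15 and 24 to 111 in cluster 16. The interactions gave 101 to 297, 80 to 168 and 485 to 654 calls, and cells with Arg1 and Chil3 42 to 81 and 105 to 170. Arg1 ranged from -0.39 to 1.58 in the class and -0.42 to 3.45 in cluster 15, Acod1 from -1.29 to 0.16 in cluster 15 and Ptgs2 from -0.55 to 0.70 in cluster 16. In the interactions Arg1 ranged from -1.43 to 6.58 (neutrophil-like) and -1.60 to 4.07 (dendritic cell-like). Acod1 ranged from -0.69 to 0.70 (microglia-like) and -0.47 to 1.11 (dendritic cell-like), and Thbs1 from -0.91 to 0.32 and -0.76 to 0.067 in the same 2. Chil3 in cells with Arg1 ranged from -0.33 to 0.087 and Ptgs2 in cells with Chil3 from -0.023 to 0.40. The differences of shares ranged from -1.80 to 2.70 points for Arg1, -21.0 to -11.5 for Chil3, 3.85 to 4.31 for Acod1, 2.11 to 3.77 for Ptgs2, -5.46 to -3.62 for Fn1, 11.3 to 18.6 for Thbs1 and 0.661 to 2.29 for both kinds. Where a day keeps 1 library, that library is assumed to vary like the others.

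The labels give both days the replicate numbers 1 and 2. The deviations of same-numbered libraries correlated at -0.121 in the monocyte- or macrophage-like class and at 0.049 in dendritic cell-like cells. With 1 contrast of libraries a day, such values cannot show whether same-numbered libraries share an animal or a batch. With the replicate block 697 genes were called there, 239 in cluster 15 and 63 in cluster 16. With crossed numbers 1115 genes were called in the class, 734 in microglia-like cells, 212 in cluster 15 and 95 in cluster 16.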

Other observations

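Arg1 UMIs were also counted in clusters not named as myeloid. In the gamma delta T or innate lymphoid-like cluster 11 it had a UMI in 1 of 260 and 3 of 103 cells on day 14, against 2 of 22 and 1 of 26 cells on day 5. Of these cells 0 and 3 on day 14, against 2 and 1 on day 5, also held Gata3, and 0 and 3 on day 14, against 1 and 0 on day 5, held Il1rl1, genes known from group 2 innate lymphoid cells. All 7 of them also held a UMI of a phagocyte gene, at 0.199% to 0.946% of their UMIs by library. Cells of cluster 11 with over 2% of such UMIs had been left out as mixed, so the filter itself kept this share low. In the unnamed cluster 8, 2 of 8 cells of day 14 library 2 held 35 Arg1 UMIs, up to 29 in 1 cell, and no cell of the other 3 libraries did. Phagocyte genes made up 5.44% of the UMIs of these 2 cells, and 63.4% of the barcodes of cluster 8 before mixed cells were left out lay over the limit set on the doublet score. Their part in these counts was not tested.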
